A study of Atriplex lentiformis with 8 samples.

Results

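The genes described here build cutin, the polyester of the plant cuticle, or move cuticle lipids to the outside of the cell. They were chosen by name, as 10 Arabidopsis loci: the acyl-CoA synthetases LACS1 and LACS2, the acyltransferases GPAT4, GPAT8 and DCR, the oxidoreductase HTH, the hydrolase-fold protein BDG1, and the export proteins LTPG1, ABCG11 and ABCG32. A transcript was counted as a member where its best match in the Arabidopsis proteins, without the version suffix, was one of these loci. Members found in this way were 20 of the 46492 transcripts in the table, from 8 of the 10 loci, among 12468 loci with any match. GPAT8 and BDG1 were not the best match of any transcript, and no value is given for them.

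The plants were Atriplex lentiformis (quailbush), a salt-tolerant C4 shrub, and the RNA came from leaves, with 4 libraries at each of 2 temperatures, described as biological replicates. The cool regime was 23 °C in daytime with nights of 18 °C, and its leaves were labelled with a 16:3 lipid phenotype. The hot regime was 43 °C in daytime with nights of 30 °C, and its leaves were labelled with an 18:3 lipid phenotype. Each regime had its own growth chamber, so chamber and temperature cannot be told apart. Both groups shared a 16-hour photoperiod, a light intensity of 120 microeinstein and a period of 8 weeks, and neither the plants' genotype nor any pooling of plants is stated.

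In land plants the cuticle covers the epidermis and limits water loss. Cutin precursors are fatty acids that are activated by acyl-CoA synthetases, oxidised at the chain end and within the chain by cytochrome P450 enzymes, and joined to glycerol by acyltransferases of the endoplasmic reticulum. ATP-binding cassette (ABC) transporters of the G family carry the products across the plasma membrane, lipid-transfer proteins take part in export at the cell surface, and cutin synthases of the GDSL family link the monomers in the wall. All roles given here are known from Arabidopsis, and a best match does not show that an Atriplex transcript has the same role.

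Each level below is the authors' mean FPKM (fragments per kilobase, scaled to library size) over the 4 libraries of a group. Values of single libraries were not analysed here, so no SD can be given, and how deeply each library was read is not known. The verbs rose and fell are kept for transcripts with an adjusted p under 0.05 in the deposited comparison of the authors. Intervals are approximate: each is the 95% interval of a normal test whose p equals the p listed by the authors. The summed level of a gene adds all its transcripts and carries no test. In bulk leaf RNA, fewer cells of a type and less RNA per cell cannot be told apart.

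Among the matched members, LACS2, HTH and LTPG1 rose at 43 °C, while GPAT4, DCR and LACS1 did not pass. Of the ABCG11 transcripts 2 fell and 2 did not pass. ABCG32 had 1 transcript that rose, 1 that fell and 7 that did not pass. LACS2 summed to 11.5 FPKM in the cool and 35.3 FPKM in the hot leaves, LTPG1 went from 23.1 to 49.9 FPKM, and HTH from 0.0400 to 1.31 FPKM. ABCG11 summed to 99.7 FPKM in the cool leaves and 61.7 FPKM in the hot leaves. Of the 20 transcripts 5 rose, 3 fell and 12 did not pass, so 8 were called, where 38.5% of all transcripts in the table were called. The higher share of all transcripts was 20.7% and the lower share 17.8%. Counted by the most abundant transcript of each gene, 3 of 8 members rose, none fell and 5 did not pass, against 57.7% called among all matched loci counted in that way. Of the 8 member transcripts with a mean of at least 5 FPKM, 2 rose and 2 fell, where 26.2% rose and 35.2% fell (61.4% together) among all transcripts of such levels. The median log2 change of the member transcripts in the authors' deposited table was 0.10, equal at this precision to the median of 0.10 over all transcripts. With both temperatures scaled to equal length-weighted totals the split of the member transcripts was 10 higher and 2 lower. With the median of all log2 changes set to 0 it was 5 higher and 5 lower. Each scaling adds a constant to every log2 change in the table. The shares of all transcripts called after these scalings were not computed, so these splits have no background beside them.

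**Figure D1:**
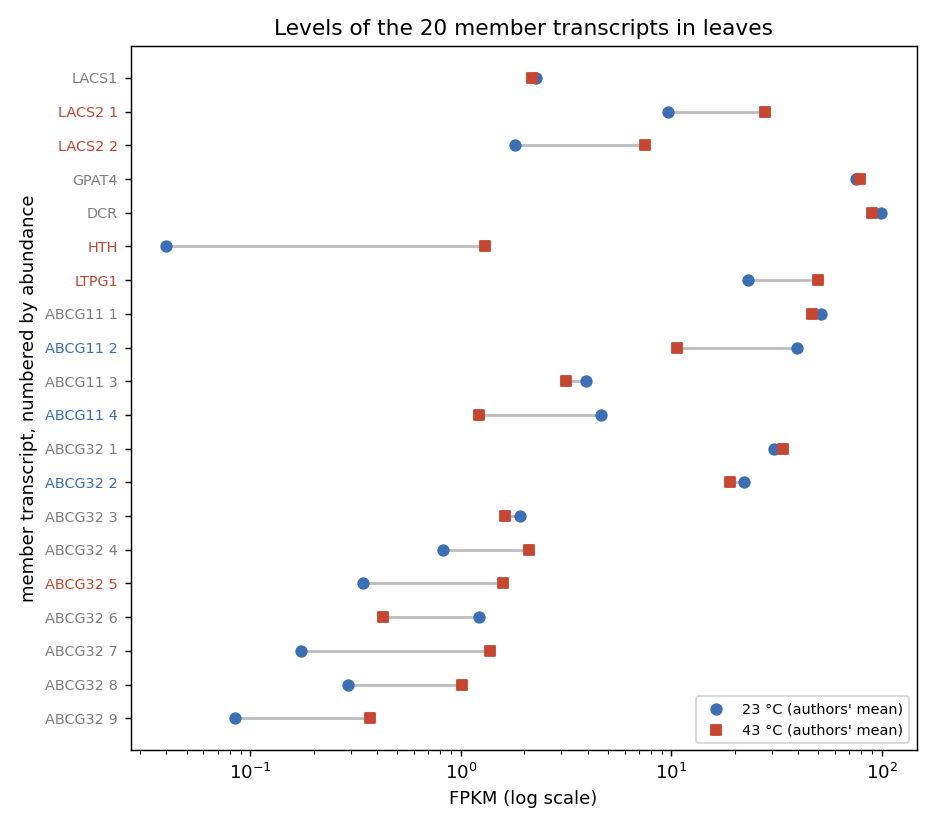
The authors' mean FPKM of each member transcript at 23 °C (blue circles) and 43 °C (red squares) on a log axis, with transcripts of a gene numbered from the most abundant. Label colours mark transcripts called higher (red), lower (blue) or not called (grey) at an adjusted p below 0.05. HTH spans the widest distance, from 0.0400 to 1.31 FPKM, while GPAT4 and DCR hold nearly the same level at both temperatures.

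The members differed widely in level. Mean FPKM over both temperatures ran from 0.228 for the least abundant ABCG32 transcript to 94.3 for DCR. GPAT4, DCR, LTPG1, ABCG11 and ABCG32 each had a transcript in the upper 10% of all transcripts by mean FPKM, and 7 member transcripts in all lay there. LACS2, with its main transcript at percentile 89.2, came just below. HTH was at percentile 27.2, and LACS1 at percentile 57.0. No member transcript was listed at 0. Their lengths ran from 983 to 5062 bases, with a median of 2365 bases against 1609 bases over the whole table. LACS2, ABCG11 and ABCG32 had several transcripts and the other 5 matched members 1 each.

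Fatty acids enter the pathway through the long-chain acyl-CoA synthetases. LACS2 (AT1G49430), which activates fatty acids for cutin in the leaf epidermis, had 2 transcripts from a single assembly component, 2810 and 2881 bases long. The more abundant of them rose from 9.65 to 27.9 FPKM (log2 change 1.52, approximate interval 1.27 to 1.76, adjusted p = 2.05e-32, from the authors' deposited table). Its second transcript rose from 1.81 to 7.47 FPKM (log2 change 2.04, adjusted p = 3.94e-14, from the authors' deposited table). Both transcripts thus moved the same way, and their intervals overlapped. The gene's sum was 3.08 times as high in the hot leaves, and the minor transcript made up 15.8% of it at 23 °C and 21.2% at 43 °C. LACS2 kept its rise when both temperatures were scaled to equal totals or the median of all log2 changes was set to 0.

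LACS1 (AT2G47240), which overlaps with LACS2 in cutin synthesis and also activates very long chains for wax, had 1 transcript at 2.29 FPKM in the cool and 2.18 FPKM in the hot leaves. It did not pass (log2 change -0.08, adjusted p = 0.888, from the authors' deposited table). The approximate interval ran from -0.69 to 0.54 on the log2 scale. The smallest log2 change called among 2421 transcripts with a fragment number within 1.2-fold of its own was 0.64 in size. That is the smallest call among many transcripts and not a detection limit for LACS1, whose approximate standard error was 0.31. The interval of LACS1 does not reach the log2 change of 1.52 of the main LACS2 transcript. The level of LACS1 was below that of LACS2 at both temperatures: LACS2 summed to 11.5 FPKM in the cool leaves.

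The acyltransferases were the most abundant enzymes of the set and did not pass. GPAT4 (AT1G01610), which together with GPAT8 transfers oxidised acyl groups to glycerol-3-phosphate, stood at 74.9 FPKM in the cool and 79.1 FPKM in the hot leaves. Its log2 change was 0.07 (approximate interval -0.09 to 0.22, adjusted p = 0.55, from the authors' deposited table). DCR (AT5G23940), a BAHD-family acyltransferase needed for dihydroxylated monomers in cutin, stood at 98.8 and 89.8 FPKM. Its log2 change was -0.15 (approximate interval -0.33 to 0.04, adjusted p = 0.213, from the authors' deposited table). The intervals of both genes leave out a 1.5-fold change in either direction. The smallest log2 change called among transcripts of like fragment number was 0.17 in size, which is not a detection limit for either gene.

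Scaling decides the direction of both. The FPKM columns, weighted by transcript length, had unequal totals, and making these equal adds 0.25 to every log2 change. GPAT4 then passed as higher (log2 change 0.32), while DCR turned to 0.11 and did not pass. With the median of all log2 changes set to 0, GPAT4 turned to -0.03 and DCR passed as lower (log2 change -0.25). Those calls were recomputed from the approximate errors and are not the authors'. GPAT8, the close relative of GPAT4, had no matched transcript. Each transcript has only 1 best match, so any Atriplex transcript closer to GPAT4 than to GPAT8 is counted under GPAT4.

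HTH (AT1G72970), a glucose-methanol-choline oxidoreductase whose loss in Arabidopsis fuses floral organs, had the largest log2 change among the members. Its transcript of 2420 bases was listed at 0.0400 FPKM at 23 °C, percentile 3.25 of all values there, and at 1.31 FPKM at 43 °C, percentile 44.5. The log2 change in the authors' deposited table was 5.02 (adjusted p = 9.76e-08), with an approximate interval from 3.30 to 6.74. That width follows from a cool value close to 0, and the size of the change is poorly known. On a log2(FPKM + 1) scale the difference was 1.15. HTH remained a rare transcript at 43 °C, below all matched members when their transcripts are summed. BDG1, an epidermal hydrolase-fold protein whose loss disrupts the Arabidopsis leaf cuticle, had no matched transcript.

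**Figure D2:**
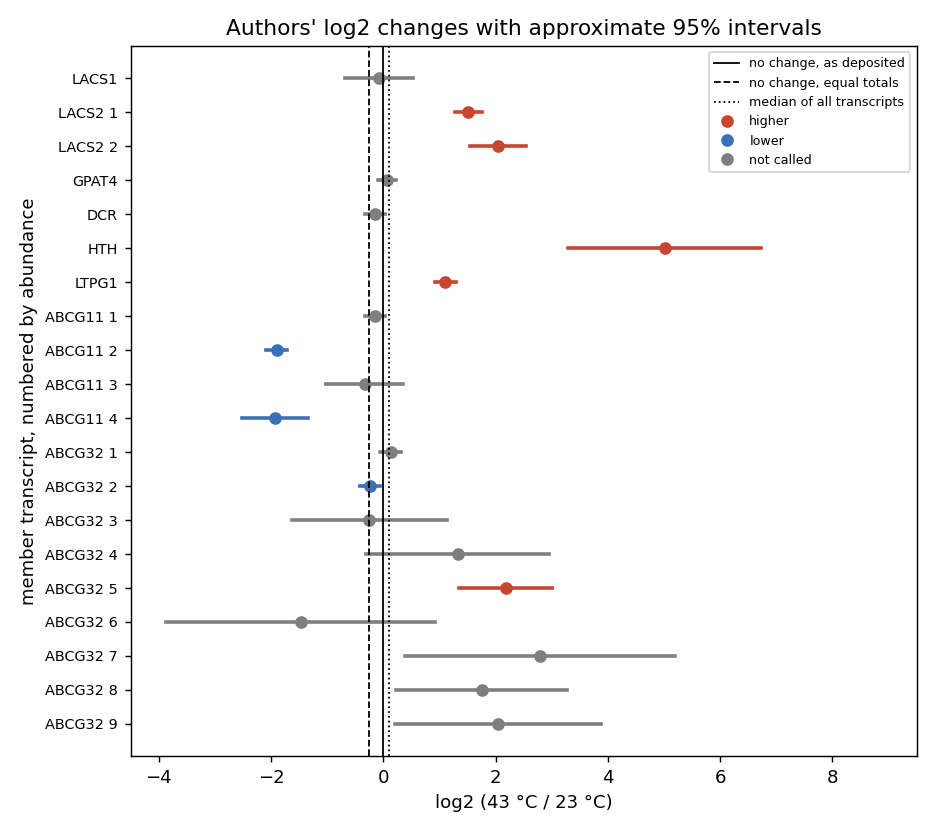
The authors' log2 change (43 °C over 23 °C) of each member transcript, with the approximate 95% interval of a normal test of equal p. Red marks higher, blue lower and grey not called; the dashed line shows where no change would lie with equal totals (-0.25) and the dotted line the median of all transcripts (0.10). LACS2, HTH and LTPG1 lie to the right of all 3 lines, ABCG11 transcripts 2 and 4 to the left, and GPAT4 and DCR within the lines' spread.

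Calls differed among the transcripts of the export genes ABCG11 and ABCG32. The other matched members, LACS2 aside, had 1 transcript each and could not show this. Calls also differed within some related genes, such as GPAT3. LTPG1 (AT1G27950), a lipid-transfer protein anchored to the plasma membrane that takes part in wax export, rose from 23.1 to 49.9 FPKM. The log2 change was 1.10 (approximate interval 0.91 to 1.29, adjusted p = 9.7e-29, from the authors' deposited table). It kept its call and direction with equal totals (1.36) and after median centring (1.01).

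ABCG11 (AT1G17840), a half-size transporter needed for the export of both wax and cutin precursors, had 4 transcripts, and both of its abundant ones came from different assembly components. The most abundant, of 2412 bases, stood at 51.6 and 46.7 FPKM and did not pass (log2 change -0.15, adjusted p = 0.177, from the authors' deposited table). The second, of 2193 bases, fell from 39.5 to 10.7 FPKM (a log2 ratio of -1.90 with adjusted p = 1.65e-84, from the authors' deposited table). Their approximate intervals, -0.33 to 0.02 and -2.09 to -1.71, did not overlap. The second transcript made up 39.6% of the summed ABCG11 level in the cool leaves and 17.3% in the hot leaves.

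The 2 minor ABCG11 transcripts split in the same manner. A transcript from the component of the most abundant one did not pass at 3.93 and 3.15 FPKM, and a separate contig fell from 4.64 to 1.23 FPKM (a log2 ratio of -1.93 with adjusted p = 9.57e-10, from the authors' deposited table). Over all 4 transcripts the log2 ratio of the sums was -0.69, and without the most abundant transcript it was -1.67. The lower sum of ABCG11 thus came mostly from the second transcript. Whether these are separate gene copies or variants of a single gene was not tested. The assembly component of the most abundant transcript also held transcripts that matched the histidine kinase AHK2 and the transcription factor WRKY39, so its boundaries are uncertain. With equal totals the most abundant ABCG11 transcript turned to a log2 change of 0.10 and did not pass, and after median centring it passed as lower (-0.25), while both called transcripts kept their fall.

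ABCG32 (AT2G26910), a full-size transporter that exports cutin precursors, had 9 transcripts, of which 2 carried nearly all the signal. The most abundant, of 1567 bases, did not pass at 30.7 and 33.9 FPKM (log2 change 0.13, adjusted p = 0.275, from the authors' deposited table), but with equal totals it passed as higher (0.39). A longer transcript of 3073 bases from a neighbouring component fell from 22.2 to 19.0 FPKM. Its log2 change was -0.24 (adjusted p = 0.0322, from the authors' deposited table), and it turned to 0.02 and did not pass with equal totals. The approximate intervals of these transcripts, -0.052 to 0.32 and -0.42 to -0.053, all but touched, and whether the 2 changes differ was not tested. The sum over the 9 transcripts was 57.8 FPKM in the cool leaves and 61.4 FPKM in the hot leaves. The log2 ratio of these sums was 0.09, and after median centring it was -0.010. Whether the 2 abundant transcripts are parts of a single mRNA, such as the contig of 4654 bases matched to this gene, was not tested. If they are, adding their FPKM counts that mRNA more than once.

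The other 7 ABCG32 transcripts were below 3 FPKM at both temperatures. Only a contig of 4654 bases passed among them, rising from 0.345 to 1.60 FPKM (log2 change 2.18, adjusted p = 1.92e-06, from the authors' deposited table). Of the remaining 6, those at 0.828 and 2.10, 0.175 and 1.38, 0.293 and 1.02, and 0.0850 and 0.370 FPKM were listed higher at 43 °C, and those at 1.22 and 0.425 and at 1.90 and 1.62 FPKM lower. None of these 6 passed, although 3 of them did with equal totals. Of the 7, 5 came from a single assembly component. Matches of 4 of these 5 and of 1 further contig had E values above 1e-30, so these rare transcripts are uncertain members.

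**Figure D3:**
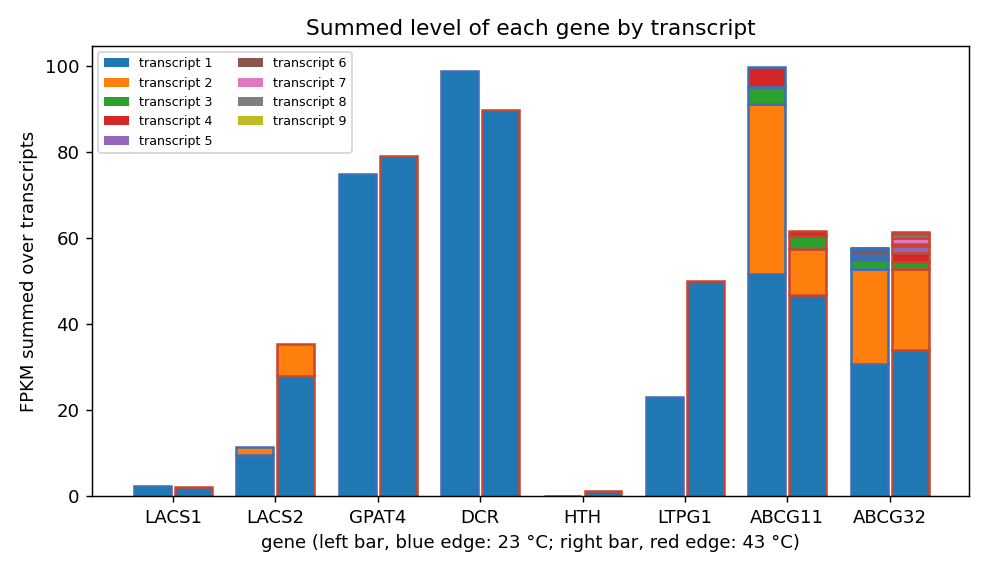
FPKM summed over the transcripts of each matched member at 23 °C (left bar, blue edge) and 43 °C (right bar, red edge), with the transcripts stacked in order of abundance. The ABCG11 bars go from 99.7 to 61.7 FPKM, mostly through the second transcript, whereas the ABCG32 bars stand at 57.8 and 61.4 FPKM.

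The summed levels can be ranked at each temperature. At 23 °C, ABCG11 (99.7 FPKM) and DCR (98.8 FPKM) led, followed by GPAT4, ABCG32, LTPG1 (23.1 FPKM), LACS2 (11.5 FPKM), LACS1 and HTH. At 43 °C the order was DCR (89.8 FPKM), GPAT4 (79.1 FPKM), ABCG11 (61.7 FPKM), ABCG32 (61.4 FPKM), LTPG1 (49.9 FPKM), LACS2 (35.3 FPKM), LACS1 and HTH. With no errors on the means, neighbours such as ABCG11 and DCR at 23 °C or ABCG11 and ABCG32 at 43 °C cannot be called different. The ABCG32 sum, and with it that gene's rank, would be too high if its abundant transcripts are parts of a single mRNA.

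Other enzymes of cutin synthesis were taken from a list of 14 genes, of which 5 had a match, and all 5 passed. By their most abundant transcript 4 rose and 1 fell, against 26.9% higher and 30.9% lower over all matched loci. CUS2 (AT5G33370), a GDSL-family cutin synthase, rose from 27.8 to 103 FPKM (log2 change 1.89, adjusted p = 2.33e-64, from the authors' deposited table). CYP86A8 (AT2G45970), a cytochrome P450 that hydroxylates the chain end of fatty acids, rose from 17.4 to 51.7 FPKM, and its second transcript from 0.63 to 3.08 FPKM. BDG3 (AT4G24140), a relative of BDG1, rose from 1.56 to 10.9 FPKM. Its shorter transcript rose from 0.88 to 5.02 FPKM, though its match had an E value of 5.5e-19. FDH (AT2G26250), an epidermal ketoacyl-CoA synthase, was the fourth that rose, from 41.4 to 70.9 FPKM.

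CYP77A4 (AT5G04660), a P450 that oxidises fatty acids within the chain, fell from 44.3 to 39.0 FPKM. Its log2 change of -0.19 turned to 0.06 with equal totals. Over the 8 transcripts of this list 7 rose and 1 fell, where 20.7% of all transcripts rose and 17.8% fell. The median over the 8 transcripts was 1.73 on the log2 scale. The other 9 genes, among them GPAT6, CYP86A2, CYP86A4 and CYP77A6, had no matched transcript, so the counts describe the matched part of the list.

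Among 13 regulators of cuticle genes 6 were matched. Of these 2 rose, 1 fell and 3 did not pass, where 26.9% of all matched loci were higher and 30.9% lower. A SHINE-clade transcription factor (AT5G11190, given as SHN3 in the authors' deposited table), of the group that activates cutin genes, rose from 2.05 to 4.82 FPKM (adjusted p = 0.00485, from the authors' deposited table). MYB30, an activator of very long chain fatty acid synthesis, rose from 8.32 to 17.3 FPKM. ANL2, a homeobox regulator of the epidermis, fell from 24.5 to 20.025 FPKM, a call that ended with equal totals (log2 change -0.05). Neither MYB94, an activator of wax genes (13.0 and 11.9 FPKM), nor CFL1, a negative regulator of cuticle formation (6.18 and 8.08 FPKM), passed. CFL1 passed as higher with equal totals (0.63), though its match had an E value of 2.5e-18. MYB16, which acts with the SHINE factors, did not pass at 2.84 and 4.39 FPKM.

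Wax genes share precursors and exporters with cutin. Of 14 wax genes 11 were matched, with 4 higher, 4 lower and 3 not passing by the most abundant transcript, where 26.9% of all matched loci were higher and 30.9% lower. Over all transcripts of the wax list, 10 of 25 rose and 4 fell, beside 5 and 3 of 20 for the cutin and export members. CER3, of alkane formation, fell from 45.4 to 11.9 FPKM, and the ketoacyl-CoA synthase KCS1 from 37.0 to 16.4 FPKM. CER2, of chain elongation, fell from 28.3 to 15.1 FPKM by its main transcript, while its second did not pass at 14.6 and 16.2 FPKM but was higher by the test with equal totals (0.39). CER4, which reduces acyl groups to alcohols, rose from 0.39 to 17.3 FPKM. PAS2, the dehydratase of elongation, rose from 16.9 to 33.1 FPKM and the exoribonuclease CER7 from 2.50 to 4.60 FPKM. CER9, a ubiquitin ligase (57.1 and 55.1 FPKM), and CER6, an elongation enzyme (32.3 and 29.1 FPKM), did not pass. With equal totals both log2 changes turned positive and CER9 passed as higher (0.19), while after median centring CER6 passed as lower (-0.26). The difference between these lists was not tested.

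**Figure D4:**
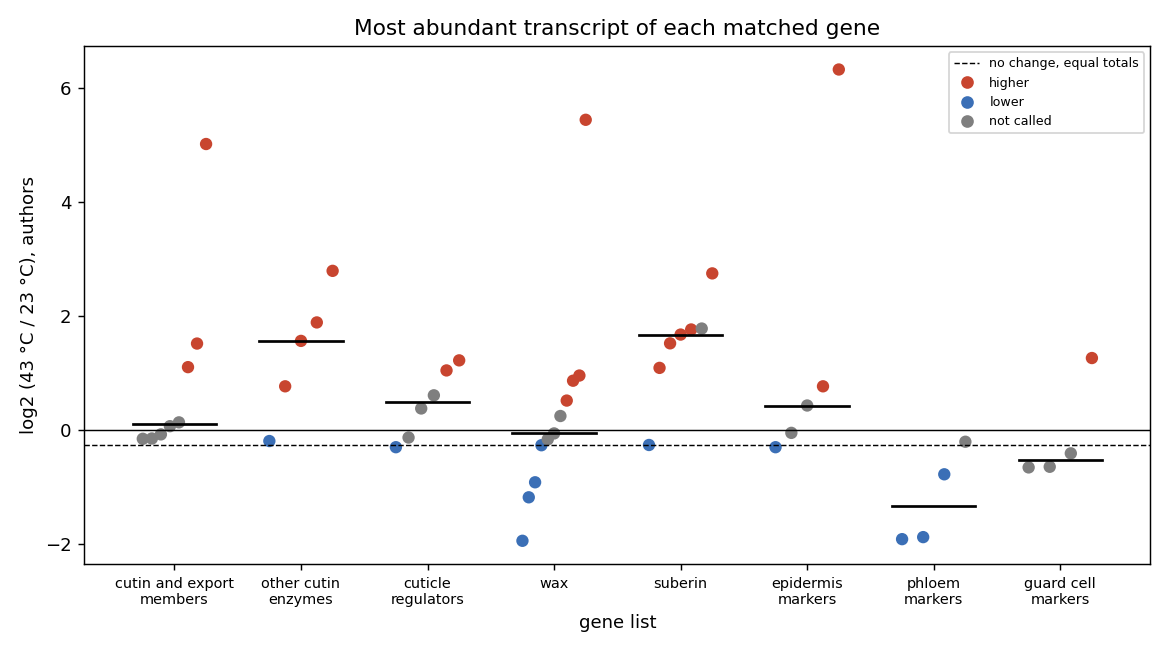
The authors' log2 change (43 °C over 23 °C) of the most abundant transcript of each matched gene, by list, with black bars at the list medians. Red marks higher, blue lower and grey not called, and the dashed line shows no change with equal totals. The other cutin enzymes have a median of 1.56 and the cutin and export members 0.10.

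Cutin genes act in the epidermis, so epidermal marker genes were read beside them. Of 6 markers 5 were matched, and their transcripts summed to 105 FPKM in the cool and 222 FPKM in the hot leaves, with none listed at 0. Of the 5 genes, 2 rose, 1 fell and 2 did not pass, where 26.9% of all matched loci rose and 30.9% fell. PDF1, a proline-rich protein of the outer cell layer, rose from 0.803 to 65.9 FPKM, though its match had an E value of 1.1e-18. FDH rose and ANL2 fell, as given above. PDF2, a homeobox factor that specifies the epidermis, did not pass at 12.6 and 12.3 FPKM, and ACR4, an epidermal receptor kinase, did not pass at 1.70 and 2.31 FPKM. ATML1 had no matched transcript.

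All 4 marker genes of phloem companion cells and sieve elements were matched. By the most abundant transcript 3 fell and 1 did not pass, where 30.9% of all matched loci fell. Of the 13 transcripts of these genes 4 fell, 1 rose and 8 did not pass, where 17.8% of all transcripts fell and 20.7% rose. The 13 transcripts summed to 307 FPKM in the cool and 132 FPKM in the hot leaves. The sucrose transporter SUC2 fell from 207 to 55.3 FPKM, SEOR1 from 9.97 to 2.71 FPKM, and the regulator APL from 17.3 to 10.2 FPKM, while the proton pump AHA3 did not pass at 56.0 and 48.9 FPKM. Of 7 guard cell markers 4 were matched, summing to 27.0 and 23.3 FPKM. By the most abundant transcript 1 rose and 3 did not pass, where 26.9% of all matched loci rose and 30.9% fell. KAT1, a potassium channel, rose from 1.39 to 3.36 FPKM. FAMA, a regulator of guard cell fate (8.77 and 5.59 FPKM), and MYB60 (4.94 and 3.18 FPKM) did not pass, and FAMA passed as lower after median centring (-0.75). SLAC1, an anion channel, did not pass by its main transcript at 2.21 and 1.68 FPKM, while another of its transcripts rose from 0.318 to 1.16 FPKM, and its sum was 4.66 and 5.82 FPKM. None of these markers was listed at 0. The part of these marker changes in the results for the cutin and export genes was not tested.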

How the data were processed

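RNA-seq was done on 8 leaf libraries, 4 at each temperature, grouped by sample titles. CASAVA 1.8.2 and Bowtie2 were used, per the submitters' processing notes, with no role given. Per the file headers, the authors deposited FPKM for both temperatures, a log2 ratio (43 °C over 23 °C), its p-value and FDR, and best BLASTx matches to TAIR10 proteins. The sources used here do not say how fragments were counted, transcripts assembled or values normalized, what test gave the p-values, or whether it used the spread between plants. Every deposited FPKM was a multiple of 0.0025 (within 1e-06), which fits an average over 4 libraries rounded to 2 decimals, and the values were taken as group means. No test on single libraries, as had been planned, could be made. Recomputing the Benjamini-Hochberg adjustment across the 46492 transcripts gave the deposited FDR within 3.2e-07.

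Approximate errors, and calls with equal totals, after median centring and against a 1.5-fold change, were computed from the standard error implied by each deposited p under normality. Filters on low values had p readjusted over what they kept, and pseudocounts and quantile normalization gave directions alone. This arithmetic was tested on simulated data. Named genes were all members and, from each of 8 other lists, up to 3 risen, 3 fallen and 2 not passing by the most abundant transcript. Other genes named (FDH among cutin enzymes, MYB16 and SLAC1) were added after their values were seen. Members and lists were chosen with earlier results of these data known. Alternatives were stricter thresholds, filters at 1 and 5 FPKM, pseudocounts of 0.1, 1 and 5, other scalings, a test against a 1.5-fold change, and E values of at most 1e-30. Python 3.11.15, pandas 2.3.3 and scipy 1.17.1 were used.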

Additional observations from a re-analysis of the deposited data

How the results depend on the processing

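No paired analysis was possible because the table held means and no values of single libraries, and leaving out each replicate in turn was not run for the same reason. LACS2, LTPG1, HTH and both called ABCG11 transcripts kept their direction and call under the 8 settings that gave calls of their own (the threshold of 0.01, filters, equal totals, median centring, the test against a 1.5-fold change and the adjustment over matched transcripts), where they stayed in, but HTH, with a mean below 1 FPKM, dropped out of both filters on low values, and the ABCG11 contig and the minor LACS2 transcript out of the filter at 5 FPKM. Over member transcripts and these settings, 127 results kept call and direction, 7 gained and 2 lost a call and 6 changed direction. The 4 settings that changed log2 values alone (pseudocounts and quantile normalization) gave no calls, and 78 values kept their direction and 2 did not. Because sums carry no error, a sum was counted as moved where its sign changed or it moved by over 1.5-fold. The causes of the changes below were not tested, apart from filters, which leave fewer transcripts.

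With equal totals, DCR (log2 change 0.11, its sum 0.12), LACS1 (0.18, its sum 0.18), the most abundant ABCG11 transcript (0.10), ABCG32 transcripts 2 and 3 by abundance (0.017 and 0.0076), CYP77A4 (0.061), MYB94 (0.12), LACS8 (0.12), CER6 (0.091), CER9 (0.19), PDF2 (0.20) and AHA3 (0.048) turned positive. Member transcripts called higher went from 5 to 10 and members from 3 to 5, relatives higher from 5 to 8, and other cutin enzymes, regulators, suberin genes and epidermal markers each had 0 lower in place of 1. Median centring turned GPAT4 (-0.029, its sum -0.020), ABCG15 (-0.084) and the ABCG32 sum (-0.010) negative and called 5 member transcripts, 2 members and 1 guard cell marker lower. Both scalings shift every log2 change in the table. The shares of all transcripts and of all matched loci called under them were not computed, so these counts have no background beside them. Quantile normalization turned DCR (0.042), the most abundant ABCG11 transcript (0.024), LACS8 (0.041), CER6 (0.0057) and CER9 (0.14). Limited to its abundant components, chosen after seeing the data, the ABCG32 sum had a log2 ratio of -0.00184, and without its most abundant transcript ABCG11 had -1.67.

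At a threshold of 0.01, 0 other cutin enzymes were lower, and 3 relatives and 1 suberin gene higher. At least 1 FPKM left 3 member transcripts and 1 suberin gene higher; at least 5 FPKM left 2 member transcripts, 1 regulator, 3 relatives, 0 suberin genes and 0 guard cell markers higher. Tested against a 1.5-fold change, 1 regulator, 2 relatives, 1 suberin gene, 2 wax genes, 1 epidermal marker and 0 guard cell markers were higher, 4 relatives lower, and 0 other cutin enzymes, regulators, suberin genes and epidermal markers lower. E values of at most 1e-30 left 1 epidermal marker higher. No share over all matched loci was computed for these settings either. Depth per library is unknown, and transcripts with as few fragments as the 7 rare ones of ABCG32 were called only from log2 changes of 0.78 to 1.48 upwards in size.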

Other observations

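Suberin, a related polyester of roots and wounded tissue, was read from a list of 13 genes, of which 7 were matched. By the most abundant transcript 5 rose, 1 fell and 1 did not pass, where 26.9% of all matched loci were higher and 30.9% lower. Levels were low: the transporter ABCG2 rose from 0.0975 to 0.725 FPKM, the P450 enzyme CYP86A1 from 0.378 to 1.31 FPKM and CYP86B1 from 0.185 to 0.618 FPKM, all values from the authors' deposited table. The call of CYP86B1 (adjusted p = 0.0475, from the authors' deposited table) ended after median centring and at a threshold of 0.01. The main CYP86A1 transcript also lost its call at that threshold. A second CYP86A1 transcript, which rose from 0.265 to 1.41 FPKM, kept its call there (adjusted p = 0.00957, from the authors' deposited table). GPAT5, the suberin relative of GPAT4, did not pass at 0.218 and 0.755 FPKM (adjusted p = 0.0502, from the authors' deposited table) and passed as higher with equal totals. The ketoacyl-CoA synthase KCS2, at 50.4 and 42.2 FPKM, was the only abundant gene of the matched list and fell, a call that ended with equal totals (log2 change -0.0084).

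Relatives of the members formed a list of 33 genes, of which 19 were matched, with 5 higher, 7 lower and 7 not passing by the most abundant transcript, where 26.9% of all matched loci were higher and 30.9% lower. Over all 40 transcripts of the list 16 rose and 11 fell, where 20.7% of all transcripts rose and 17.8% fell. A relative of HTH (AT5G51950) rose from 3.67 to 34.7 FPKM, a level well above that of HTH itself, and its other transcript, listed at 0 in the cool leaves, had 1.79 FPKM in the hot leaves. GPAT1 rose from 0.77 to 2.37 FPKM (adjusted p = 0.0359, from the authors' deposited table), a call that ended after median centring and at a threshold of 0.01. Among full-size relatives of ABCG32, ABCG36 fell from 90.8 to 31.1 FPKM and ABCG31 from 5.78 to 0.12 FPKM, while another ABCG31 transcript did not pass at 0.643 and 0.813 FPKM. GPAT3 fell from 11.0 to 4.11 FPKM by its main transcript, and another of its transcripts rose from 1.43 to 3.42 FPKM. ABCG15 (24.6 and 25.0 FPKM) and LACS8 (29.2 and 26.6 FPKM) did not pass, but ABCG15 passed as higher with equal totals (log2 change 0.27) and LACS8 as lower after median centring (-0.24).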
